A study of Ursus arctos with 12 samples.

Results

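NWD1, GRM2 and UBAP1L are 3 genes of the brown bear, taken by symbol from a count table of 30249 genes, whose transcripts were far more abundant in hibernating than in active muscle. They were selected on their winter to summer fold change, so their seasonal difference is a description here and carries no test. The libraries came from the vastus lateralis, a thigh muscle, of 6 free-ranging bears aged 2 to 3 years, each biopsied in winter hibernation and again in its summer active period of the same year, which gave 6 winter and 6 summer libraries. Animals, muscle and library kit were shared by both groups, and hibernation, season and the months between the captures cannot be told apart. A library held between 16742406 and 32140160 reads counted on genes. Each of the 3 genes had a read in all 12 libraries and passed the limit of 30 reads over the 12 libraries, which 17290 genes passed.

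The 3 proteins work in unrelated systems. NWD1 is a cytosolic protein with a NACHT nucleotide-binding domain and WD40 repeats, built like the apoptosis factor APAF1 and the NOD-like receptors. It has been studied in prostate cells and in neural progenitors, where it binds the purine synthesis enzyme PAICS. GRM2 is a metabotropic glutamate receptor of neurons, found mostly at presynaptic sites, which acts through Gi/o proteins to hold down adenylyl cyclase and cAMP, and GRM3 is its closest relative. UBAP1L is a little-studied paralog of UBAP1, a subunit of ESCRT-I, the complex that sorts ubiquitylated membrane proteins into multivesicular bodies.

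The muscle label held in every library: the 9 of 10 fibre markers found in the table, among them ACTA1, CKM and TTN, summed to 109268 to 184974 CPM, reads scaled to the size of the library, in summer and 114175 to 153110 in winter. The winter library of bear 1509 stood apart. It held 3744 reads of the neuron markers, such as SNAP25, STMN2 and the GABA-synthesizing enzyme GAD1, against 12 to 34 in the other winter libraries and 12 to 38 in summer. Results that rest on this library are therefore given with and without bear 1509. Of the other lists of cell type markers, fibroblast genes had the median farthest from 0, with a summed level of 4176 to 11267 CPM in summer and 269 to 1622 CPM in winter. In bulk muscle, fewer cells of a type and less RNA per cell cannot be told apart, and what such shifts contribute to the levels below was not tested.

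NWD1 had the largest fold change of the 3 genes. In summer it was barely counted, at 12 to 38 reads per library, or 0.470 CPM at the lowest, 0.778 at the median and 1.65 at the highest. In winter it had 133 to 1182 reads, which gave 7.34 CPM at the lowest, 17.2 at the median and 48.2 at the highest. The seasons did not overlap, and the lowest winter level was 4.45 times the highest summer level. On the log2 scale the mean went from −0.16 ± 0.56 log2 CPM in summer to 4.28 ± 0.95 in winter (SD, n = 6 bears). The fitted log2 fold change was 4.73 with a standard error (SE) of 0.46, a 26.5-fold higher winter level. Among the 11365 genes whose mean reached 1 log2 CPM, it ranked 1 by fold change.

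NWD1 also spread most between bears. Winter levels differed 6.57-fold between the highest and the lowest bear, against 2.42-fold for GRM2 and 2.26-fold for UBAP1L. Bear 1305 reached 48.2 CPM and bear 1317 33.4 CPM, while bears 1316, 1511 and 1512 lay between 15.0 and 17.8 CPM and bear 1509 was at 7.34 CPM. Bear 1305 rose by 5.83 on the log2 scale, from 0.765 CPM in summer. The smallest rise, 3.08, was that of bear 1509, and the other 4 bears lay between these, up to 5.01.

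**Figure D1:**
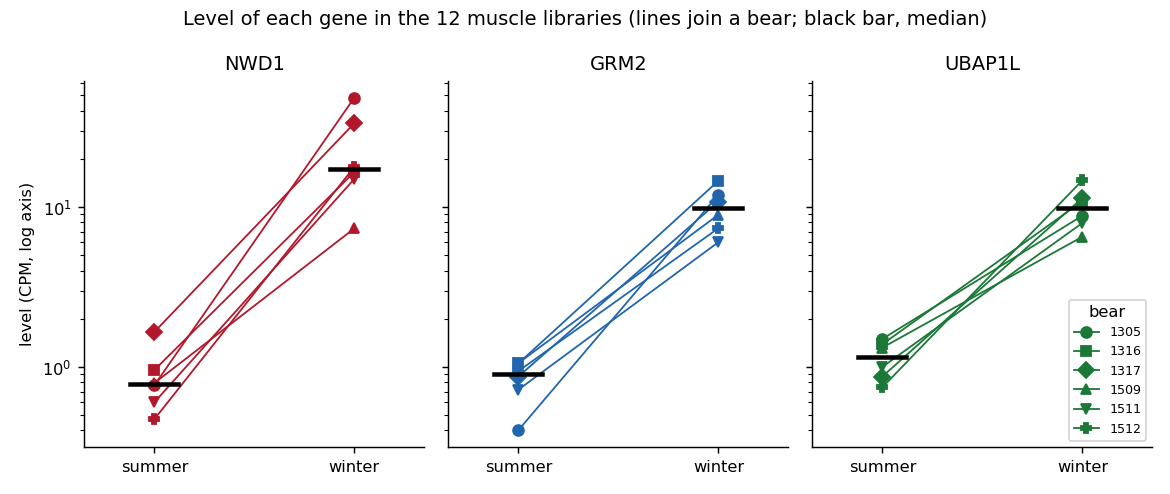
Level of NWD1, GRM2 and UBAP1L in CPM (log axis) in the 6 summer and 6 winter libraries, with a line joining the libraries of each bear and a black bar at the median. Every winter point lies above every summer point of its gene, and winter NWD1 runs from 7.34 to 48.2 CPM.

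GRM2 had 24 reads or fewer in every summer library. These libraries held 11 to 24 reads, or 0.401 CPM at the lowest, 0.904 at the median and 1.05 at the highest. In winter the libraries held 100 to 347 reads, or 6.02 CPM at the lowest, 9.88 at the median and 14.6 at the highest. The seasons did not overlap, and the lowest winter level, of bear 1511, was 5.71 times the highest summer level, of bear 1509. The mean was −0.17 ± 0.46 log2 CPM in summer against 3.26 ± 0.46 in winter (SD, n = 6 bears), with a fitted log2 fold change of 3.57 (SE 0.27), or 11.9-fold.

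The largest GRM2 difference was again that of bear 1305, at 4.62 on the log2 scale, and this bear had the lowest summer level of the gene, 11 reads. Bears 1509, 1511 and 1512 differed by 2.86 to 2.98, and bears 1316 and 1317 by 3.69 and 3.51. GRM2 ranked 4 by fold change among the genes whose mean reached 1 log2 CPM.

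UBAP1L had the smallest fold change of the 3 genes. In summer it had 19 to 41 reads per library, or 0.743 CPM at the lowest, 1.16 at the median and 1.49 at the highest. In winter it had 118 to 451 reads, which gave 6.51, 9.85 and 14.7 CPM. The lowest winter level, in bear 1509, was 4.36 times the highest summer level, in bear 1305, so the seasons did not overlap here either. The mean was 0.25 ± 0.38 log2 CPM in summer against 3.29 ± 0.41 in winter (SD, n = 6 bears). Its fitted log2 fold change was 3.14 (SE 0.24), an 8.83-fold higher winter level that ranked 9.

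For UBAP1L the bears fell in another order. Bear 1512 rose most, by 4.15 on the log2 scale, from the lowest summer level to the highest winter level of the gene, 14.7 CPM. Bear 1305, first for the other 2 genes, was second to last at 2.49, and bear 1509 was last at 2.23.

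**Figure D2:**
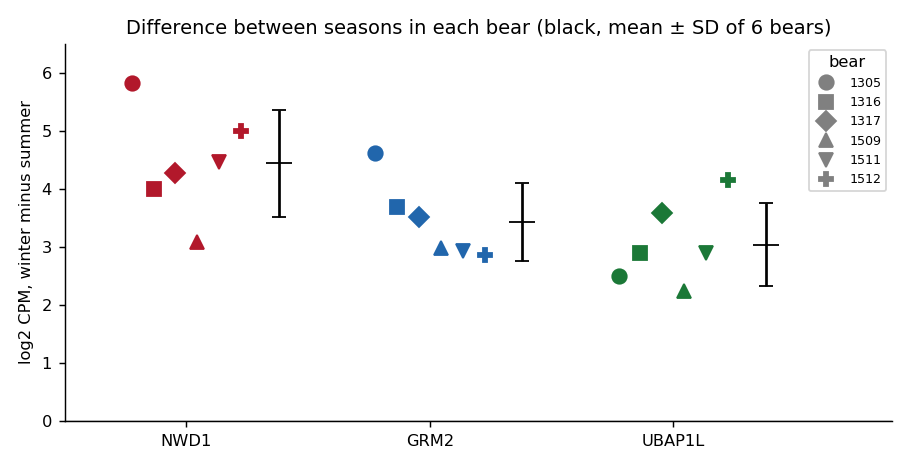
Winter minus summer log2 CPM of each bear for the 3 genes, with the mean ± SD over 6 bears in black. All 18 differences lie above 0, from 2.23 to 5.83, and bear 1305 is highest for NWD1 and GRM2 but not for UBAP1L.

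Each gene was higher in winter in 6 of 6 bears, as were 18.4% of all genes tested, and none of the 3 overlapped between the seasons, as was the case for 9.12% of all genes with the winter libraries on top (8.21% had them all below). Because the rise chose the genes, nothing is read from these counts. In the plot of all genes, the fold changes above that of NWD1 belonged to genes under a mean of 1 log2 CPM, and NWD1 ranked 77, GRM2 159 and UBAP1L 224 among all 17290 genes tested. CPM are not scaled by transcript length, so levels are not compared between genes, and the highest CPM of a list says only which gene had the most reads.

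**Figure D3:**
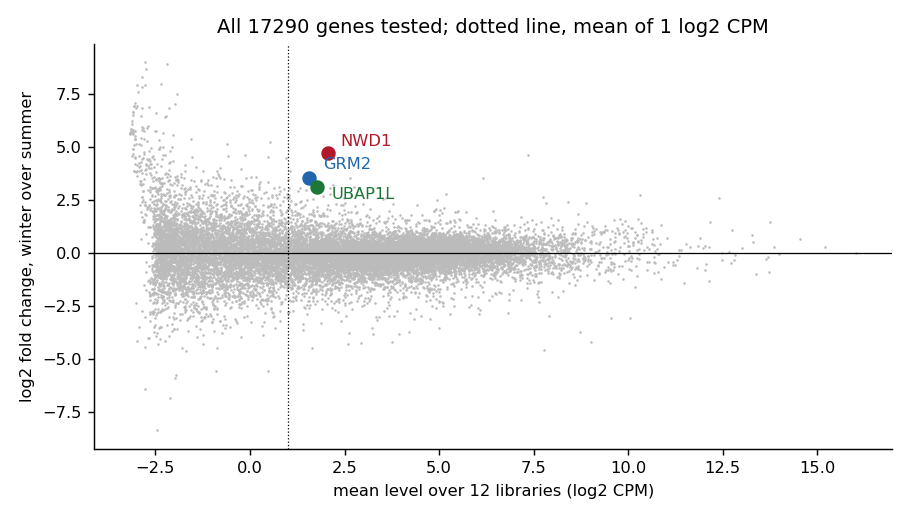
Log2 fold change of winter over summer against the mean level over 12 libraries for the 17290 genes tested, with NWD1, GRM2 and UBAP1L marked and a dotted line at a mean of 1 log2 CPM. To the right of that line NWD1, at 4.73, is the highest point.

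Whether a bear with a high summer level also had a high winter level was asked across the 6 bears, a question that the seasonal difference did not settle. For NWD1 Pearson's r between summer and winter was 0.327 (exact two-sided permutation p = 0.529) and Spearman's rho 0.0857 (exact p = 0.919). For GRM2 the values were −0.0544 (exact permutation p = 0.925) and 0.0857 (exact p = 0.919). UBAP1L had r = −0.623 (exact permutation p = 0.19) and rho = −0.543 (exact p = 0.297). Without the 2 bears farthest from the summer median, r was −0.00656, 0.265 and 0.305 in this order, with 4 bears left. No relation was detectable over 6 bears.

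Within a season the genes were compared pair by pair across the bears. Over the 3 pairs of genes in winter, r was 0.381 for NWD1 and GRM2, 0.402 for NWD1 and UBAP1L and 0.122 for GRM2 and UBAP1L (exact permutation p = 0.458, 0.424 and 0.822). In summer these pairs gave 0.108, 0.128 and −0.323 (exact permutation p = 0.807, 0.821 and 0.601). Spearman's rho was 0.429, 0.6 and 0.143 in winter (exact permutation p = 0.419, 0.242 and 0.803). It was 0.257, 0.257 and −0.143 in summer (exact permutation p = 0.658, 0.658 and 0.803). Without the 2 bears farthest from the median of the gene named first, r was 0.334, 0.29 and −0.375 in winter and 0.381, 0.778 and 0.849 in summer, with 4 bears left. Over all 9 relations the adjusted p was 0.925 for each r and 0.919 for each rho, where 6 bears allow an unadjusted p down to 0.00139.

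The winter library of bear 1509, with its neuronal reads, was examined for GRM2, a neuronal receptor. There GRM2 was at 8.94 CPM, inside the range of the other winter libraries, 6.02 to 14.6 CPM, while the summed neuron markers were at 207 CPM against 0.63 to 2.05 CPM in the other winter libraries and 0.572 to 1.52 CPM in summer. Without this bear the log2 fold change of GRM2 was 3.69 (SE 0.31), that of NWD1 4.90 (SE 0.43) and that of UBAP1L 3.30 (SE 0.24). Each was above its value over 6 bears. In the plot of neuron markers and GRM2 by library, the neuron markers of the other 5 winter libraries sum to no more than 2.05 CPM. GRM2 was chosen for its winter rise, so its place above the summer libraries is not read as a result. Which cells the GRM2 reads came from was not tested.

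**Figure D4:**
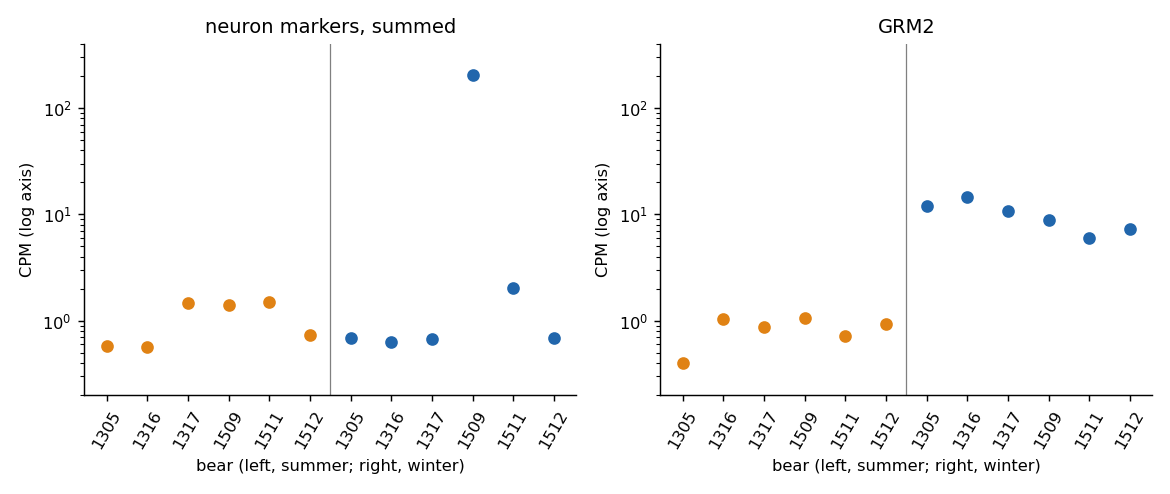
Summed level of the neuron markers and level of GRM2 in CPM (log axes) in each library, summer on the left (orange) and winter on the right (blue). Bear 1509 in winter is at 207 CPM for the markers, and its GRM2 level of 8.94 CPM lies among the winter libraries.

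GRM3, the closest relative of GRM2, was nearly absent. It had 11 reads in the winter library of bear 1509, 0 to 2 in the other winter libraries and none in summer, and was too low to test. Of the 25 other glutamate receptor genes listed, 23 were in the table and 12 had enough reads. Of these 12, 5 were higher and 1 was lower in winter at a threshold of 0.05 on the adjusted p in edgeR's quasi-likelihood test, where 19.6% of all genes were higher and 19.9% lower. Counts of the other lists and of the neighbours below have these same shares of all genes as background. The median log2 fold change of the glutamate receptors was 2.95, against −0.00212 over all genes. Without bear 1509, 5 of the list could be tested, 0 were higher and 3 were lower in edgeR, and the median was −0.96. Without bear 1305 or 1317, 3 were higher. Over 6 bears, 6 were higher at p below 0.05 before adjustment, but DESeq2 and limma voom called only 1 and 1 of the list.

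The 5 genes called higher were neuronal AMPA, NMDA and metabotropic receptors with most or many of their reads in 1 library. GRIA2, an AMPA receptor subunit, had 1094 reads in the winter library of bear 1509, 0 to 5 in the other winter libraries and 0 to 2 in summer (adjusted p = 0.0136 in edgeR). GRIA1 had 417, 0 to 2 and 0 to 3 reads in this order (adjusted p = 0.024, or 0.222 with the bear as a replicate block), and GRM5 had 75, 0 to 1 and 0 to 1 (adjusted p = 0.0329). GRIA4 had 53, 0 to 1 and 0 to 2 reads (adjusted p = 0.0462, or 0.138 with the replicate block). The NMDA receptor subunit GRIN2C had 16 reads there, 0 to 6 in the other winter libraries and 0 to 1 in summer, and was higher in 5 of 6 bears (adjusted p = 0.00303). GRIA1, GRIA2 and GRM5 were higher in 2 of 6 bears and GRIA4 in 3 of 6. Each of these 5 genes was below the limit on reads once bear 1509 was left out. GRM5 missed the threshold without bear 1305 (adjusted p = 0.0523) or bear 1317 (0.0517), and GRIA4 without any of the other 5 bears (0.0518 to 0.0687). In DESeq2 with the replicate block the adjusted p of GRIA1, GRIA2, GRIA4 and GRM5 was 0.56 to 0.865, and in limma voom 0.492 to 0.896.

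GRIN3A, an NMDA receptor subunit, went the other way from GRM2. It fell from a mean of 0.23 ± 0.78 log2 CPM to one of −1.35 ± 0.42 (SD, n = 6 bears), and its log2 fold change was −1.92 (SE 0.40, adjusted p = 0.00198), with 6 of 6 bears lower in winter. GRIA3, which had the highest CPM of the list in summer, was at 34 to 71 reads in summer and 8 to 23 in the winter libraries other than that of bear 1509, which had 365. Its log2 fold change was 0.88 over 6 bears (adjusted p = 0.435) and −1.61 without bear 1509 (SE 0.32, adjusted p = 0.0021). GRIK4, a kainate receptor subunit named after its values were seen, was called without that bear too, at −0.96 (adjusted p = 0.0278).

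On the side of the ligand, 4 enzymes that make and use glutamate were lower in winter muscle. Of 19 genes listed for glutamate supply and transport, 13 were tested, 4 were higher and 4 lower, with a median log2 fold change of −0.18. Without bear 1509, 11 were tested, 3 were higher and 4 lower, and the median was −0.72. GOT1, the cytosolic aspartate aminotransferase, fell from a mean of 9.19 ± 0.12 log2 CPM to one of 7.38 ± 0.34 (SD, n = 6 bears), with a fitted change of −1.78 (SE 0.15, adjusted p = 4.08e-06). GLUL, the glutamine synthetase, had a log2 fold change of −1.50 (SE 0.16, adjusted p = 2.28e-05). The mitochondrial enzymes fell less, GLUD1, glutamate dehydrogenase, by 0.86 (adjusted p = 9.92e-05) and GOT2 by 0.67 (adjusted p = 0.00301). These 4 genes were lower in 6 of 6 bears.

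The glutamine transporters SLC38A1 and SLC38A2 rose by 1.17 (SE 0.23, adjusted p = 0.0012) and 0.77 (SE 0.21, adjusted p = 0.00906) on the log2 scale, and each was higher in 6 of 6 bears. RIMKLA, which makes N-acetylaspartylglutamate, a peptide ligand of group II receptors, rose by 0.60 (SE 0.18, adjusted p = 0.017) in 6 of 6 bears. Its relative RIMKLB, on the same list, was not called, at −0.18 (adjusted p = 0.294). The adjusted p of RIMKLA was 0.067 without bear 1305 and 0.0774 without bear 1316, and 0.0628 in DESeq2 with the replicate block. The vesicular transporter SLC17A7, also a neuron marker, had 181 reads in the winter library of bear 1509, 0 to 3 in the other winter libraries and 0 to 3 in summer. It was higher in 3 of 6 bears and was called (adjusted p = 0.0265) without, but not with, the bear as a replicate block (0.0615), and without bear 1509 it was below the limit on reads.

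Downstream of GRM2, 25 of 29 genes listed for Gi/o signalling were tested, of which 1 was higher and 5 were lower, with a median log2 fold change of −0.22. The Gi subunit GNAI2 fell by 0.69 (SE 0.13, adjusted p = 0.00101) on the log2 scale. Of the adenylyl cyclases, the enzymes that make cAMP, ADCY2, with the highest CPM of the list, fell by 0.99 (SE 0.12, adjusted p = 3.69e-05) and ADCY7 fell by 1.22 (adjusted p = 0.000983). ARRB1, the arrestin that uncouples receptors from G proteins, fell by 0.61 (adjusted p = 0.00343), and these 4 genes were lower in 6 of 6 bears. The receptor kinase GRK3 rose by 0.64 (SE 0.16, adjusted p = 0.00584) in 6 of 6 bears. GNAO1, the Go subunit abundant in neurons, had a log2 fold change of 0.44 over 6 bears (adjusted p = 0.653) and −1.37 without bear 1509 (adjusted p = 0.00306). Without that bear 1 gene of the list was higher and 7 were lower. With the replicate block edgeR called 2 higher and 6 lower, the added genes, named after their values were seen, being the potassium channel subunit KCNJ3 (log2 fold change 0.49, adjusted p = 0.0304) and the adenylyl cyclase ADCY1 (−0.82, adjusted p = 0.042).

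UBAP1, the paralog of UBAP1L, was not called in either direction. Its mean was 4.92 ± 0.14 log2 CPM in summer against 4.77 ± 0.08 in winter (SD, n = 6 bears), and the log2 fold change was −0.15 (SE 0.09, adjusted p = 0.193). Its adjusted p was 0.0916 to 0.396 over the alternatives. Of the 32 ESCRT genes listed, 30 were tested, 9 were higher and 1 was lower in winter, with a median log2 fold change of 0.17. The share higher was 30% against 19.6% of all genes, but with library totals in place of TMM scaling 4 were higher, 13.3% against 15.7% of all genes. Without bear 1305 or bear 1511, 5 were higher.

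Within ESCRT-I, where UBAP1 belongs, the core subunit TSG101 rose by 0.27 (adjusted p = 0.0282) in 5 of 6 bears, but its adjusted p was 0.112 with library totals and 0.0611 to 0.11 without any bear other than 1316. VPS37B fell by 0.86 (SE 0.19, adjusted p = 0.00291), and did so in 6 of 6 bears. In ESCRT-III, whose filaments cut membranes, CHMP4A rose by 0.78 (SE 0.12, adjusted p = 0.000205) and CHMP4C by 1.20 (SE 0.25, adjusted p = 0.00211), both in 6 of 6 bears. The other ESCRT genes called higher changed less than 1.5-fold. They were STAM and STAM2 of ESCRT-0, CHMP1B, CHMP7, the ATPase VPS4A and PTPN23, with log2 fold changes from 0.24 to 0.57. CHMP1B was not called with the replicate block (adjusted p = 0.0587) or without bear 1305, 1317, 1509 or 1511 (0.0531 to 0.113). VPS4A missed the threshold without bear 1305 (adjusted p = 0.0612) or 1511 (0.0525), as did PTPN23 without any bear other than 1509 (0.0567 to 0.166). PDCD6IP and CHMP4B, the ESCRT genes with the highest CPM, were at 0.20 (adjusted p = 0.0545) and 0.14 (adjusted p = 0.256).

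For NWD1, the closest relative NWD2 had 5 reads in all, each of them in the winter library of bear 1509. Among the 17 NACHT and related genes listed, 11 were tested, and 3 were higher and 4 lower, with a median log2 fold change of −0.42. TEP1, of the telomerase and vault particles, rose by 0.80 (SE 0.20, adjusted p = 0.00601), and NAIP, an inflammasome sensor, by 0.93 (adjusted p = 0.0228), both in 5 of 6 bears. The adjusted p of NAIP was 0.0665, 0.0779 and 0.0569 without bear 1305, 1316 or 1317, and 0.0542 in DESeq2 with the replicate block. The third, APAF1, rose by 0.47 (adjusted p = 0.00617).

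The 4 genes of that list called lower act in innate or adaptive immunity. NOD2, a sensor of bacterial peptidoglycan, fell by 1.38 (SE 0.18, adjusted p = 8.79e-05) on the log2 scale and CIITA, the activator of MHC class II genes, fell by 1.16 (SE 0.23, adjusted p = 0.00127). The mitochondrial NLRX1 had the log2 fold change −0.74 (adjusted p = 0.0089), and these 3 were lower in 6 of 6 bears. NLRP1 was at −0.64 (adjusted p = 0.0373), but its adjusted p was 0.0673 with the replicate block and 0.113, 0.0712, 0.129 and 0.0847 without bear 1305, 1317, 1509 or 1511.

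Of 12 chaperones and co-chaperones listed, 2 were higher and 5 lower, and the median log2 fold change was −0.24. The co-chaperones PPID and FKBP4 fell by 1.44 (SE 0.21, adjusted p = 0.000142) and 0.93 (SE 0.12, adjusted p = 9.08e-05), HSPA8, which had the highest CPM of the list in summer, by 0.87 (adjusted p = 0.000871) and the ubiquitin ligase STUB1 by 0.60 (adjusted p = 0.00862), each in 6 of 6 bears. STIP1, at −0.57, was the fifth. HSP90AB1 rose by 0.73 (SE 0.13, adjusted p = 0.000778) in 6 of 6 bears and FKBP5, a glucocorticoid-responsive co-chaperone, by 0.94 (SE 0.26, adjusted p = 0.011) in 5 of 6.

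PAICS, the purine enzyme that binds NWD1, had a mean of 4.91 ± 0.23 log2 CPM in summer against 5.13 ± 0.24 in winter (SD, n = 6 bears), and the log2 fold change was 0.22 (adjusted p = 0.208). Of the 8 genes of de novo purine synthesis, 0 were higher and 1 was lower in edgeR, with 1 higher and 2 lower at p below 0.05 before adjustment. DESeq2 also called 0 higher. Without bear 1511, PPAT was called higher (adjusted p = 0.0402). The gene called lower, named after its values were seen, was PRPS1, which makes the ribose precursor (log2 fold change −0.45, SE 0.08, adjusted p = 0.000787). ATIC, with the highest CPM of the list, was at −0.26 (adjusted p = 0.0992), and the median of the list was −0.13.

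As neighbours of the 3 members, the 3 nearest genes on each side that the count table also holds were taken from RefSeq's table of a later bear assembly, 18 genes in all. That table gives no chromosome for these genes, so nearness rests on its order and on the start positions, which ran in that order. Of the 18, 14 were tested. Over 6 bears the highest log2 fold change of the 14 was 0.58 and the median was −0.43. By an adjusted p below 0.05, 3 were higher and 7 lower. These were 21.4% and 50% of the 14, against 19.6% and 19.9% of all genes tested. Without bear 1509, 3 were higher and 7 lower as well, MED26 being called and PDCD7 not, and the highest log2 fold changes were 0.66 for MED26 (SE 0.24, adjusted p = 0.0418) and 0.66 for RAD54L2 (SE 0.16, adjusted p = 0.00616).

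Around UBAP1L 5 genes were tested, of which 4 were lower and 1 was higher. KBTBD13, a Kelch protein of skeletal muscle that is mutated in nemaline myopathy and lies right next to UBAP1L, had 30 to 63 reads in summer and 8 to 22 in winter. Its mean fell from 1.08 ± 0.33 log2 CPM to −0.41 ± 0.60 (SD, n = 6 bears), and the log2 fold change was −1.53 (SE 0.30, adjusted p = 0.00143). All 6 bears had less of it in winter. RASL12, a Ras-like GTPase 1 gene further on, was at 5 to 12 reads in summer and 0 to 2 in winter, with a log2 fold change of −2.08 (SE 0.49, adjusted p = 0.00456), and SLC51B beyond it had 1 read in all. On the other side, PDCD7, a component of the minor spliceosome, was at 0.41 (adjusted p = 0.0498, and 0.0245 to 0.12 over the alternatives). Its adjusted p was above the threshold without bear 1305 (0.117), 1316 (0.0595), 1317 (0.0953), 1509 (0.084) or 1512 (0.083). CLPX, of the mitochondrial protease, was at −0.36 (adjusted p = 0.00992) and CILP, a matrix protein, at −1.48 (SE 0.36, adjusted p = 0.00576).

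Around NWD1, TMEM38A, an ion channel of the sarcoplasmic reticulum, fell by 0.51 (SE 0.13, adjusted p = 0.00582) on the log2 scale and SMIM7 by 0.62 (SE 0.12, adjusted p = 0.00086), both in 6 of 6 bears. On the other side SIN3B, a corepressor scaffold, was at 0.24 (adjusted p = 0.18). F2RL3, a thrombin receptor with 2 to 14 reads per library, was lower at −1.31 (SE 0.38, adjusted p = 0.0149), but not without bear 1317 (adjusted p = 0.0575) or in DESeq2 with the replicate block (0.0874). MED26 and CPAMD8 were at 0.50 (adjusted p = 0.0866) and −0.89 (adjusted p = 0.0699). MED26 was called without bear 1509 (adjusted p = 0.0418), and CPAMD8 with the replicate block (0.0116) and without bear 1512 (0.041).

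GRM2 lay between TEX264, a receptor for autophagy of the endoplasmic reticulum, and genes with next to no reads in muscle. The mean of TEX264 was 3.95 ± 0.27 log2 CPM in summer against 3.96 ± 0.27 in winter (SD, n = 6 bears), and the log2 fold change was 0.01 (adjusted p = 0.957). Beyond it RAD54L2, a SNF2 family ATPase, rose by 0.58 (SE 0.14, adjusted p = 0.00616) and DCAF1, a substrate receptor of CUL4 ubiquitin ligases, by 0.41 (SE 0.11, adjusted p = 0.00863). IQCF6 and IQCF3 on the other side had 0 reads in the 12 libraries, and the pseudogene between them had 1.

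**Figure D5:**
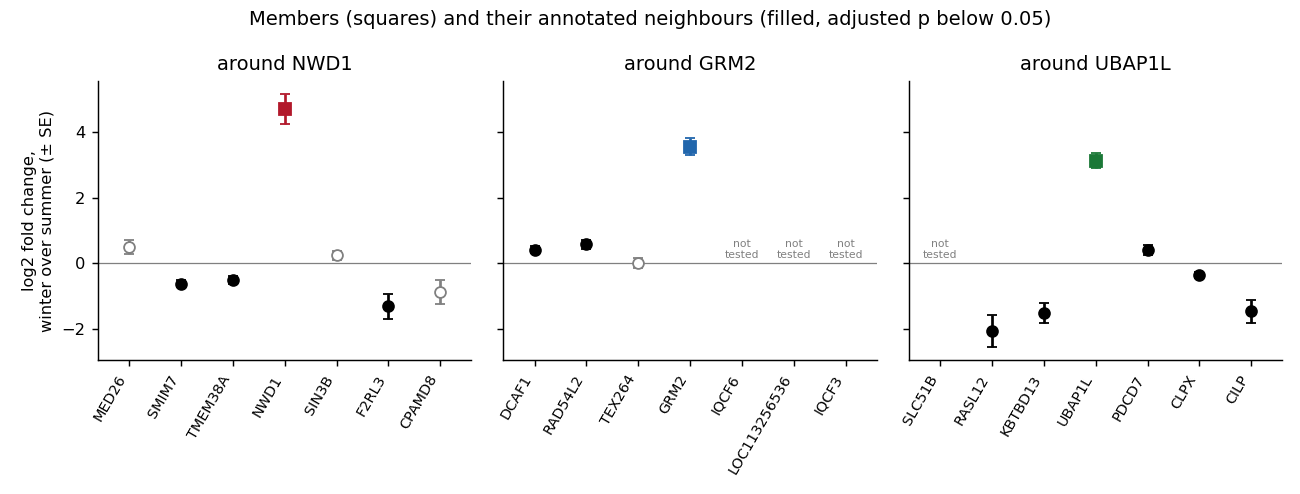
Log2 fold change of winter over summer, with its standard error, for each of the 3 genes (coloured square) and for the 3 nearest annotated genes on each side, in the order of RefSeq's table. Filled points passed an adjusted p of 0.05, and the tested neighbours lie between −2.08 and 0.58.

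The genes whose levels ran most like those of the 3 members were sought by Pearson's r of log2 CPM over the 12 libraries, among 10344 other genes with a symbol and a mean of 1 log2 CPM or more. As the libraries share 2 seasons, a high r mostly shows a difference between the seasons, and r of the deviations from the season means is given as well. The r over 12 libraries, by which the genes were picked, also holds these deviations. The second r thus tends to be raised by the choice and is no separate check. Nearest to NWD1 were NOL9, a kinase of ribosomal RNA processing (r = 0.987, and 0.853 for deviations), and R3HDM2, SLC35F6, DDX42 and UIMC1 (r = 0.974 to 0.976, and 0.699 to 0.752). NOL9 went from 4.34 ± 0.19 to 5.71 ± 0.23 log2 CPM (SD, n = 6 bears).

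Among the 5 genes closest to GRM2 were UNK, an RNA-binding zinc finger protein (r = 0.99, and 0.805 for deviations), the splicing factor SRSF11 (0.986 and 0.78), ZFP90 (0.981 and 0.806) and ZMYM3 (0.98 and 0.709). UNK went from 3.66 ± 0.17 to 5.46 ± 0.26 log2 CPM (SD, n = 6 bears). UBAP1L ran most like TOMM20, a receptor of mitochondrial import (r = 0.98, and 0.582 for deviations), RBM3, a cold-inducible RNA-binding protein (0.979 and 0.587), MDM1, the microtubule-severing KATNA1, and MRLN, a micropeptide that inhibits the calcium pump SERCA (0.97 and 0.423). RBM3 went from 7.67 ± 0.40 to 10.08 ± 0.16 log2 CPM and MRLN from 4.51 ± 0.22 to 6.45 ± 0.27 (SD, n = 6 bears). The members were not each other's nearest genes. Over the 12 libraries r was 0.948 for NWD1 and UBAP1L, 0.944 for NWD1 and GRM2 and 0.94 for GRM2 and UBAP1L, with 0.3, 0.271 and −0.0898 for deviations.

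The marker lists of other cells moved in several directions beside these rises, and their part in the levels of the 3 genes was not tested. Of all genes tested, 19.6% were higher and 19.9% lower in edgeR. The shares were 50% and 0% for the neuron genes and 25% and 0% for the genes of denervated fibres. Of the neuron markers, 10 were tested, and 5 were higher and 0 lower in edgeR, with 9 higher and 0 lower at p below 0.05 before adjustment and 0 by DESeq2. Without bear 1509, 2 could be tested and 0 were called, and without bear 1512, 3 were higher. Genes known to rise in denervated fibres were higher for 2 of 8 and lower for 0 in edgeR, with 0 lower at p below 0.05 before adjustment and 0 by DESeq2. Named after their values were seen, these were CHRNG, the fetal acetylcholine receptor subunit (log2 fold change 2.29, adjusted p = 0.00699, 5 of 6 bears higher), and GADD45A, a growth arrest gene induced by stress (1.08, adjusted p = 0.00395, 6 of 6 bears higher).

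Of the Schwann cell genes, for the glia of peripheral nerve, 1 of 8 was lower, with a summed level of 49.3 to 107 CPM in summer and 44.7 to 158 CPM in winter, and 0 were lower without bear 1305 or 1316 and 2 without bear 1509. Of 5 astrocyte genes, of which SLC1A2 and SLC1A3 also stand on the glutamate supply list, 2 were lower, and 1 without bear 1317. Lower were 3 of 4 satellite cell genes (1 without bear 1305, 1509, 1511 or 1512) and 4 of 6 fibroblast genes (6 without bear 1511). So were 5 of 6 endothelial genes (3 without bear 1509), 2 of 6 macrophage genes (1 without bear 1305, 1316, 1509 or 1512 and 0 without bear 1317) and 1 of 5 adipocyte genes (2 without bear 1511). In the Schwann cell, astrocyte, satellite cell, fibroblast and macrophage lists 0 genes were higher in edgeR, with 0 at p below 0.05 before adjustment and 0 by DESeq2. Higher were 1 endothelial gene (0 without bear 1305, 1317, 1511 or 1512) and 1 adipocyte gene (0 without bear 1317, 1511 or 1512). Of the fibre markers 1 was higher and 3 were lower, with 1 lower without bear 1316. The share lower was 12.5% for Schwann cell, 20% for adipocyte, 33.3% for macrophage and for fibre and 40% for astrocyte genes. It was 66.7% for fibroblast, 75% for satellite cell and 83.3% for endothelial genes, against 19.9% of all genes. Higher were 20% of the adipocyte, 16.7% of the endothelial and 11.1% of the fibre genes, against 19.6%. The lists are short, and counts near these shares are not read as a shift.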

How the data were processed

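Poly-A RNA of the muscle biopsies was made into stranded libraries and sequenced as single reads. Per the labels and the study's methods, the authors used TopHat2 2.1.1 for alignment to the assembly ASM358476v1 and counted the reads per gene and strand with featureCounts 1.6.2. The deposited values are these raw counts, neither normalized nor filtered. Of the 30249 symbols, 22900 matched RefSeq's table of the assembly UrsArc2.0, whose order of genes gave the neighbours.

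A gene was tested where its reads over the 12 libraries came to 30 or more. With TMM scaling, edgeR 4.0.16 (R 4.3.3) was fitted to 17290 genes by glmQLFit and tested by glmQLFTest, with season as the only term, Benjamini-Hochberg adjustment and a threshold of 0.05. The standard error is the log2 fold change divided by the square root of F. CPM are TMM-scaled, and log2 CPM use a prior count of 2. The methods filter at 30 reads and name DESeq2 but give no design formula. Alternatives were a replicate block for the bear in edgeR and DESeq2 1.42.0, DESeq2 without it, limma 3.58.1 voom, RLE, library totals, 2 other filters, a prior count of 0.5 and each bear left out. Correlations used scipy 1.17.1.

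The members and lists were chosen with earlier results of these data known. Named genes were the members, every gene of the pathway lists and neighbours that was called with at least a 1.5-fold change, the closest paralogs, the gene with the highest CPM of a list, and for each member the 5 genes most like it. A few genes that fell under this rule or on the lists are not reported here and were left out of the lists.

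The libraries of a bear come from the same animal. Within a bear, their deviations from the season mean had correlations of 0.0903 to 0.344, and between bears of at most 0.142, so the ranges overlapped. No library was a copy of another of its season (lowest chi-square per gene 39). In data simulated for this comparison on 17290 genes, edgeR found 75% of the 2-fold changes, 96% of the 4-fold changes and 8 other genes.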

Additional observations from a re-analysis of the deposited data

Results flagged for a closer look

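Levels of the 3 members, and of the 39 list genes and neighbours called with at least a 1.5-fold change, were examined in each season for a library far from the other 5. A library was singled out where its gap to the nearest other, divided by the range of the season, was above Dixon's 95% critical value for 6 samples. In 11 of the 84 groups a library stood out, and in 0 of the 6 groups of NWD1, GRM2 and UBAP1L. A chance rate of about 1 in 20 groups would hold only for genes chosen without regard to their levels. The 39 genes were chosen because they were called, so the count of 11 is not compared with that rate.

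The winter library of bear 1509 accounted for 5 of the 11. There GRIA2 was at 5.92 log2 CPM (−3.53 to −1.37 in the other winter libraries), GRIA1 at 4.53 (−3.53 to −2.27), SLC17A7 at 3.33 (−3.53 to −2.23), GRM5 at 2.08 (−3.53 to −3.07) and GRIA4 at 1.59 (−3.53 to −2.77). Without bear 1509 each of these 5 genes was below the limit on reads. Their place among the genes examined thus rested on the same library. GRM2 in that library was at 3.17 log2 CPM, and the source of its neuronal reads was not tested.

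In winter, CHMP4A was at 5.13 log2 CPM in bear 1305 (others 4.73 to 4.86) and STUB1 at 5.66 in bear 1511 (4.81 to 5.08). In summer, SMIM7 was at 6.72 in bear 1305 (6.25 to 6.39). Bear 1316 had SLC38A1 at 1.10 in summer (others 1.74 to 2.03) and bear 1509 had CHMP4C at −0.70 (−0.39 to −0.20). GRIN2C was at −2.98 in the summer library of bear 1511, with 1 read, and at −3.53, with none, in the other summer libraries. Its flag rests on that 1 read.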

How the results depend on the processing

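The rise chose the 3 members and was shared by every bear, so a kept direction is no separate check of it. Under all 14 alternatives to the fit, the fold changes of the 3 members kept their direction and moved by less than the SD between bears. They spanned 4.32 to 4.90 for NWD1, 3.35 to 3.69 for GRM2 and 2.91 to 3.30 for UBAP1L on the log2 scale. When the bear was a replicate block in edgeR they were 4.60 (SE 0.30), 3.54 (SE 0.25) and 3.11 (SE 0.26). With a prior count of 0.5 the mean differences of the bears were 4.55, 3.54 and 3.12, against 4.44, 3.43 and 3.04.

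Among the glutamate receptors, those called higher, 5 in the fit reported above, were 3 with the replicate block, 0 with filterByExpr, 1 in DESeq2, 1 in DESeq2 with the block and 1 in limma voom, and 0 to 5 with a bear left out, while those lower were 1 to 3. In DESeq2 with the block GRIA1 was at −1.45 and GRIA2 at −1.80, and with a bear left out GRIA3 ran from −1.61 (without bear 1509) to 1.21 and GNAO1 from −1.37 (without bear 1509) to 0.71. DESeq2 with the block called 2 glutamate supply genes higher and 2 Gi/o genes higher, as did edgeR with the block for Gi/o (2 higher and 6 lower). ESCRT genes called higher were 4 with library totals, and 5 to 9 with a bear left out (5 without bear 1305 or 1511). Purine genes called higher were 0 to 1, the 1 being PPAT without bear 1511. Over all genes the replicate block called 3392 higher and 3663 lower.

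Of the correlations across bears, that of GRM2 and UBAP1L in winter was −0.0226 with library totals. Without the 2 bears farthest from the median, the sign differed for NWD1 (−0.00656), GRM2 (0.265) and UBAP1L (0.305) between seasons and for GRM2 and UBAP1L in summer (0.849) and winter (−0.375). Some alternatives held fewer genes or bears, and the cause of these changes was not tested. The summer counts of the members, 11 to 41 reads, limit the precision of each bear's difference.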
